A study of Mus musculus with 4 samples.

Results

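Open chromatin was examined at 8 genes that encode neuroendocrine and lung lineage transcription factors, *Insm1*, *Prox1*, *Nkx2-1*, *Foxa1*, *Foxa2*, *St18*, *Myt1* and *Myt1l*, of 21938 protein-coding genes. The members were chosen by name, with earlier results of these data known. For each gene, all ATAC-seq peaks were taken that lay in the gene body or within 50 kb on either side of it, on mm10. In ATAC-seq, a transposase inserts adapters where DNA is accessible, and peaks of reads mark open chromatin. The 4 libraries came from untreated mouse small cell lung cancer lines, an SMC and a non-SMC line numbered 1 and an SMC and a non-SMC line numbered 2, with 1 library per line. SMC lines were sorted as NCAM high and CD44 low cells and grew in suspension, whereas non-SMC lines were sorted as NCAM low and CD44 high cells and were adherent. All 4 lines were derived from lung tumors of the *RP* model (*Rb1* L/L *Trp53* L/L), in which Cre-expressing adenovirus in the lung deletes *Rb1* and *Trp53*, so both cell types carry these deletions. The mice had a mixed background of C57Bl/6, Balb-c and S129, and were infected as young adults, while their age at tumor collection is not given in the sources used here. Each line is a single sorted culture, which limits it as a model of the cells in a tumor.

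Small cell lung cancer cells of the neuroendocrine kind express factors that lung neuroendocrine cells and neurons share. INSM1 is a zinc finger transcriptional repressor that acts in endocrine and neural differentiation, and PROX1 is a homeobox factor of lymphatic, hepatic and neural lineages. NKX2-1, the TTF-1 of pathology, is required for lung development, and FOXA1 and FOXA2 are pioneer factors that open chromatin in endoderm, the lung included. ST18, MYT1 and MYT1L are related zinc finger proteins of neural and endocrine cells that largely act as repressors.

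The 4 deposited lists held between 91057 and 153954 peaks on the chromosomes kept, and the implied depth ran from 8.36 M reads in SMC line 1 to 29.4 M in SMC line 2. The libraries therefore differed in depth within a cell type as well as between types, and counts of peaks were given per 100000 peaks of their own list. Of the markers fixed for the sorted cells, *Chga* had promoter peaks in the SMC lines and none in the non-SMC lines, while *Ncam1* and *Syp* had them in all 4 libraries. *Cd44*, *Wwtr1* and *Axl* had no promoter peak in SMC line 1 and only weak ones in SMC line 2, at percentiles 41.7 to 58.9 of that list, and *Vim* had promoter peaks in every library. A percentile here is the percentage of peaks in the same list with a fold enrichment at or below that of the peak. With 2 lines of each type the smallest two-sided p of an exact permutation test is 0.333, so no test was made and values are set against the SD between lines. In a bulk library, a peak that is open in fewer cells and one that is less open in every cell cannot be told apart.

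Merging the 4 lists gave 327 regions in the windows of the 8 genes, of 357570 in the genome. A region is called SMC-only if each SMC line had a peak there and the non-SMC lines had none, and non-SMC-only if the reverse held. SMC-only regions made up 43 of the 327 (13.1%), against 4.37% of all regions of the genome. Non-SMC-only regions numbered 15 (4.59%), against 7.33% in the genome, and 8 regions (2.45%) had a peak in all 4 lists, against 3.81%. The largest set, 127 regions (38.8%, against 28.4% in the genome), had a peak in SMC line 2 alone, the library with the highest implied depth. Of the 43 SMC-only regions, 24 lay in introns, 13 between genes and 6 in exons, and 26 lay in the member gene itself. Of the 261 regions that were not SMC-only, non-SMC-only or in all 4 lists, 147 lay in introns and 98 between genes. In the member gene itself lay 125 of those 261. The numbers need both lines of a type, and with SMC line 1 or SMC line 2 left out the SMC-only regions numbered 172 (59.7%, against 37.8% in the genome) or 89 (43.6%, against 24.7%). With non-SMC line 1 or non-SMC line 2 left out, non-SMC-only regions numbered 70 (22.7%, against 32.3%) or 35 (12.8%, against 28.7%). After thinning to a common depth the SMC-only share was 10.2%, against 4.50%, with 11 non-SMC-only regions (5.91%, against 9.82%). Among strong peaks SMC-only regions no longer outnumbered non-SMC-only regions. At a p-value up to 1e-05 after thinning, 2 regions were SMC-only (4.44%, against 4.01%) and 5 were non-SMC-only (11.1%, against 16.3%). With a -log10 q of at least 5 there were 7 of each (12.5%, against 6.12% and 20.1%). At that minimum the SMC-only share stayed above that of the genome and the non-SMC-only share below it. A total of 7 SMC-only regions were within 3000 bp of the member's transcription start site (TSS), and 4 lay in another coding gene. For the 261 regions of no such kind these numbers were 15 and 38.

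The sequences below are the 200 bases around the summit of the strongest SMC-only region of 6 genes. The strongest is the SMC-only region of the gene with the highest mean percentile in the SMC lists. They were read from GRCm38, the assembly of mm10, by position. Capitals mark the letters of 7 motifs searched on both strands, which are CAGCTG (an E-box), TGTTTAC (FOXA), CACTTG (NKX2), AAGTTT (MYT1 family), TTGGCA (NFI), TGANTCA (AP-1) and GGAATG (TEAD). No motif contains another, but CACTTG also has the E-box form CANNTG. Sequences that overlapped an annotated exon were not printed, which left out the *Foxa1* region. The *Foxa2* SMC-only region was left out because its mean percentile was low, at 49.3 (82.4 in SMC line 1 and 16.1 in SMC line 2).
St18 SMC-only region, chr1:6658263-6658462, + strand: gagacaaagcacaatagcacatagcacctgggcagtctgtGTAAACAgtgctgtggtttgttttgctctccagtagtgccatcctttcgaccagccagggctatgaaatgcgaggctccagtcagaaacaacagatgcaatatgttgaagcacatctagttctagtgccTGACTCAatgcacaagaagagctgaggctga
Myt1l SMC-only region, chr12:29749983-29750182, + strand: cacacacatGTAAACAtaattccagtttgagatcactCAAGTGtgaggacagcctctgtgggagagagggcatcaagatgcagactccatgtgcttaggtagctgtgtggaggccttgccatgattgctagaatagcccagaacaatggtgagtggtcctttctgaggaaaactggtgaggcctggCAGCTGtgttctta
Prox1 SMC-only region, chr1:190156219-190156418, + strand: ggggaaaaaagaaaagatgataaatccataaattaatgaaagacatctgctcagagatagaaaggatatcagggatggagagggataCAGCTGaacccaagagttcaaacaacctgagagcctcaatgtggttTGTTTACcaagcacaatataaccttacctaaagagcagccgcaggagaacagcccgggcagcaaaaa
Myt1 SMC-only region, chr2:181775876-181776075, + strand: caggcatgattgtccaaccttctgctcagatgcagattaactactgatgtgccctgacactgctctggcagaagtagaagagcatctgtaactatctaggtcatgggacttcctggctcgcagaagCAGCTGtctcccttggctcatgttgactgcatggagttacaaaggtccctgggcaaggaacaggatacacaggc
Insm1 SMC-only region, chr2:146217342-146217541, + strand: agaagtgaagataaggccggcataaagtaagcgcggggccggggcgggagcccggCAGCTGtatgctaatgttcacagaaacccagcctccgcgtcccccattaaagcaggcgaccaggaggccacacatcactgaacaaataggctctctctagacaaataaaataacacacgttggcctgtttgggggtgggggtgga
Nkx2-1 SMC-only region, chr12:56535202-56535401, + strand: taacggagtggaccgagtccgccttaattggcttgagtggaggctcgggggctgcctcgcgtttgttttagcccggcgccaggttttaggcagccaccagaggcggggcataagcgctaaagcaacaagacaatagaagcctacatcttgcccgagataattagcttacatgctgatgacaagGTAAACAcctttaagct

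The non-SMC-only regions with the highest ranks lay at *St18*, *Myt1l* and *Foxa2*, and their sequences are given in the same form for comparison with those above. The strongest such region of *Foxa1*, with a mean percentile of 79.1, held none of the motifs and is not printed.
St18 non-SMC-only region, chr1:6624033-6624232, + strand: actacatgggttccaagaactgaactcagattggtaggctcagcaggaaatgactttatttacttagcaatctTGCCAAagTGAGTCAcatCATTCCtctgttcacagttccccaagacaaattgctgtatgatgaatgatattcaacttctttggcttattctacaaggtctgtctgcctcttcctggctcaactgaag
Myt1l non-SMC-only region, chr12:29934418-29934617, + strand: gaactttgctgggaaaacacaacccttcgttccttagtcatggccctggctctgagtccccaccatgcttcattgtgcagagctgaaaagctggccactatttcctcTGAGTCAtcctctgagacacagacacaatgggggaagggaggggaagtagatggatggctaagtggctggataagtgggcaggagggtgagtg
Foxa2 non-SMC-only region, chr2:148013491-148013690, + strand: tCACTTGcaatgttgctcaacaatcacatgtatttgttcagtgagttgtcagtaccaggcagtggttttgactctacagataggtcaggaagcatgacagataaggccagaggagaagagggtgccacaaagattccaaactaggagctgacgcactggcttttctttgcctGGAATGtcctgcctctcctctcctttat

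A FOXA match stood in the printed SMC-only sequences of *St18*, *Myt1l*, *Prox1* and *Nkx2-1*, and a CAGCTG match in those of *Myt1l*, *Prox1*, *Myt1* and *Insm1*. Over all SMC-only regions of the 8 windows, 7 of 43 (16.3%) held TGTTTAC within 100 bp of the summit, against 9.39% of SMC-only regions in the genome and 3.63% of all regions. The 7 regions lay at *Myt1l* and *St18* with 2 each and at *Prox1*, *Myt1* and *Nkx2-1* with 1 each. CAGCTG was held by 10 of the 43 (23.3%), against 21.1% of SMC-only regions in the genome and 13.6% of all regions, and 5 of these 10 were at *Myt1l*. It was also held by 5 of the 15 non-SMC-only regions (33.3%), against 14.0% of non-SMC-only regions in the genome, so the letters were found on both sides. Of the 15 non-SMC-only regions none held TGTTTAC, against 3.28% of non-SMC-only regions in the genome. With 15 regions, a count of 0 cannot be told apart from that share. Of the same 15 regions, 6 (40.0%) held TGANTCA and 8 (53.3%) held GGAATG. In the genome these 2 motifs were held by 55.0% and 19.2% of non-SMC-only regions and by 14.6% and 12.5% of all regions. Of the SMC-only regions at the 8 genes, 1 (2.33%) held TGANTCA, in the *St18* intron, and 4 (9.30%) held GGAATG. The shares over SMC-only regions in the genome were 6.53% and 9.37%. The NKX2 letters CACTTG were held by 3 SMC-only regions (6.98%) and 1 non-SMC-only region (6.67%), against 14.9% and 13.5% of such regions in the genome. TTGGCA was held by 6 (14.0%) and 4 (26.7%), against 16.8% and 16.1%. AAGTTT was found in 0 of the 43 SMC-only regions and in 2 of the 15 non-SMC-only regions, both in the *Myt1l* window, against 4.40% and 10.3% of such regions in the genome and 8.17% of all regions. A match is a run of letters and not a measured binding site, and a window without one says nothing of the factor.

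The windows of the 8 genes held 104 and 198 peaks in SMC lines 1 and 2 and 52 and 91 in non-SMC lines 1 and 2. Per 100000 listed peaks this was 114 and 129 in the SMC lines and 44.9 and 70.7 in the non-SMC lines. Both SMC lines were above both non-SMC lines, at 121 ± 10.2 (SD, n = 2) against 57.8 ± 18.3 (SD, n = 2). The difference of 63.6 was larger than the SD between lines of a type, 14.8, and it was 69.3 between the lines numbered 1 and 57.9 between those numbered 2. After the recovered reads of every library were drawn down to a common depth, the difference was 72.6. When only peaks with a -log10 q of 5 or more were used, the windows held 15, 36, 15 and 13 peaks in the same order of libraries, of 13062, 26312, 43984 and 25103 such peaks in the whole lists. Gene by gene, both SMC lines held a larger share of their peaks than both non-SMC lines in 6 of the 8 windows, against 22.3% of 18573 gene windows with at least 10 peaks. The opposite order was seen in 0 of the 8, against 19.8%. The SMC lines were higher at 4 of the 8 genes when gene bodies alone were counted or when the thinned peaks were held to a p-value of 1e-05, at which *Insm1* and *Nkx2-1* showed a difference of 0. The share of all gene windows was not computed for these settings. On the log2 scale of the ratio of mean shares, SMC over non-SMC, the 8 windows had a median of 1.22, and all gene windows had a median of 0.06 with quartiles of -0.32 and 0.43.

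**Figure D1:**
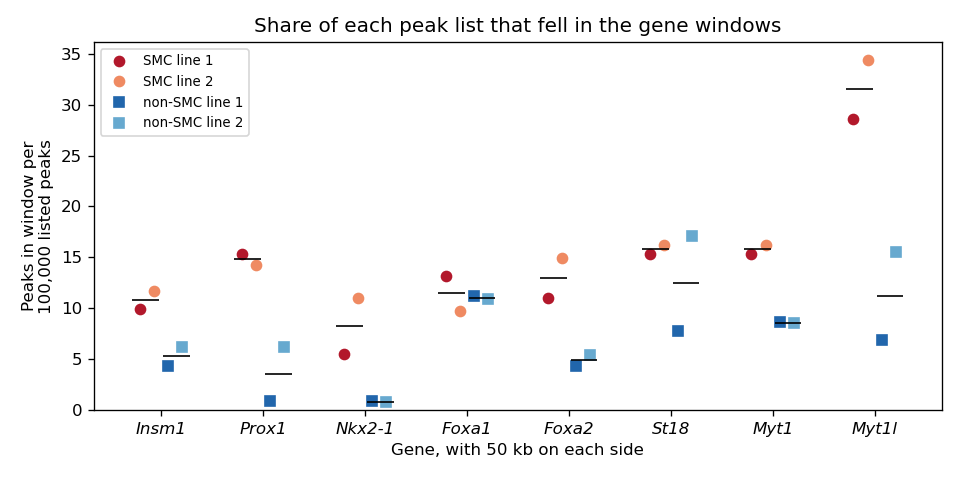
Peaks in the window of each gene per 100000 peaks of the same list, with the window being the gene and 50 kb on each side. Circles are SMC lines, squares are non-SMC lines and bars are means of 2 lines. Circles stand above squares at 6 genes and overlap them at *Foxa1* and *St18*.

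The neuroendocrine factor *Insm1* lies on the + strand of chromosome 2 (146221921 to 146225020). Its window held 9 and 18 peaks in SMC lines 1 and 2 and 5 and 8 in non-SMC lines 1 and 2, or 9.88, 11.7, 4.32 and 6.22 per 100000 listed peaks. The SMC lines were thus higher, with a log2 ratio of 1.03, above 93.4% of gene windows. Of the 5 SMC-only regions, 4 formed a cluster from 4479 bp upstream of the TSS to the UTR. The region at the TSS (chr2:146221708-146222204) had its summit 92 bp into the gene in SMC line 1 and 61 bp in SMC line 2, at percentiles 74.0 and 73.5. The strongest region of the cluster, the one printed above at 4479 bp upstream (chr2:146217257-146217782), reached percentiles 82.0 and 82.9. The non-SMC lines had no peak at either place. Non-SMC line 1 had weak peaks 2932 bp upstream and 1827 bp downstream, at percentiles 11.8 and 15.1, and non-SMC line 2 had none within 3000 bp of the TSS. The non-SMC lines shared 2 regions that SMC lines lacked, one 4849 bp downstream and one in an intron of the neighbouring gene *Ralgapa2*, with mean percentiles of 58.0 and 59.5.

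**Figure D2:**
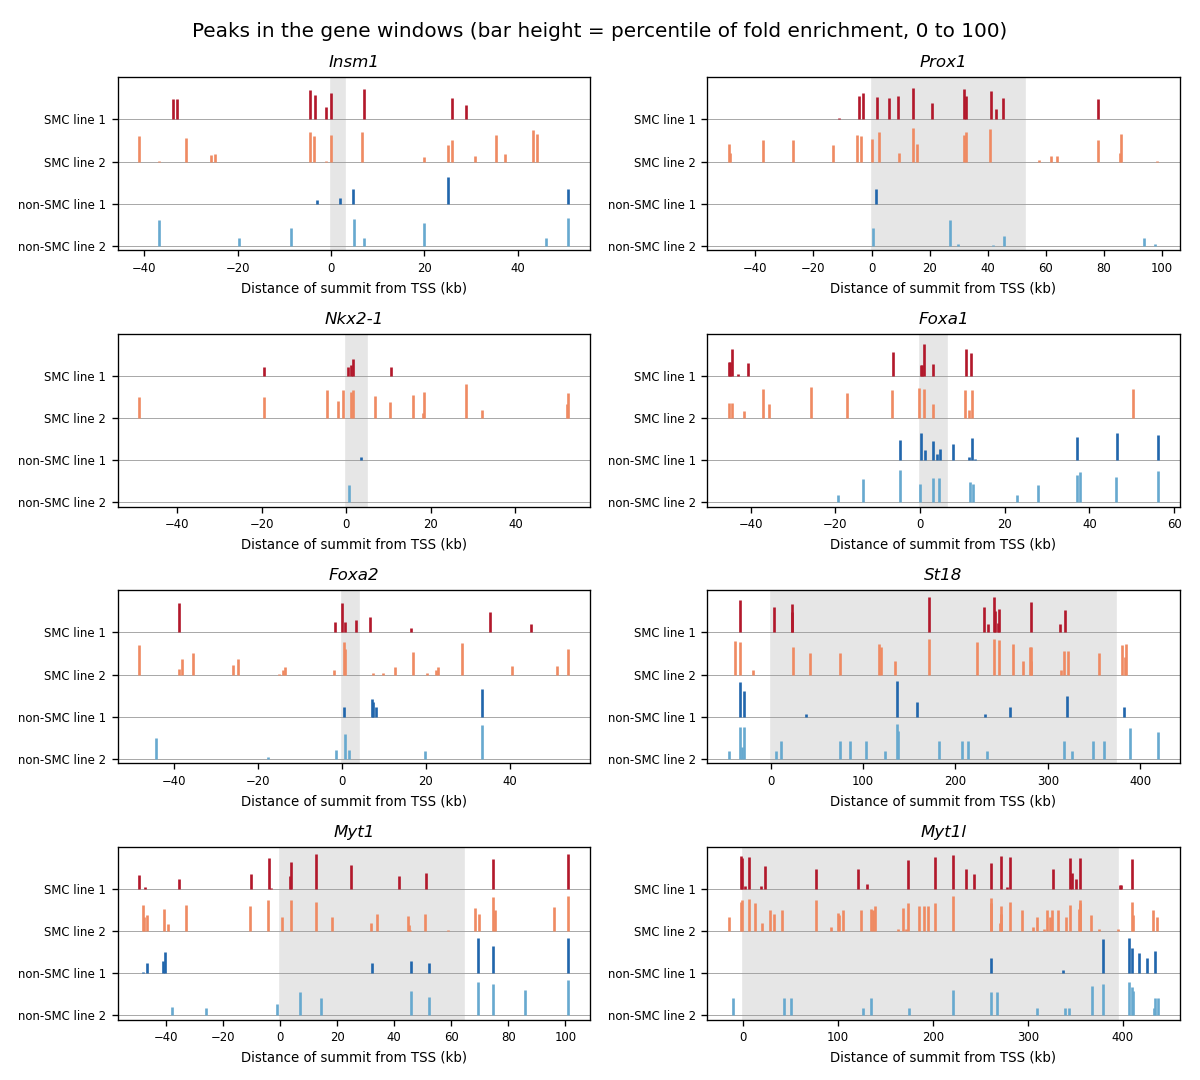
Peaks in the 8 windows by the distance of their summit from the TSS in kb, in the direction of transcription, with 1 row per library and the gene body in grey. The height of a bar is the percentile of its fold enrichment in its own list, from 0 to 100. *Prox1* and *Nkx2-1* have a single peak each in non-SMC line 1, and the tall bars within 5 kb of the *Insm1* TSS on its upstream side are those of the SMC lines.

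*Prox1* lies on the - strand of chromosome 1 (190118035 to 190170714), with no other coding gene in its window. The window held 14 and 22 peaks in the SMC lines and 1 and 8 in the non-SMC lines. The shares of 15.4 and 14.3 per 100000 listed peaks in the SMC lines stood above 0.863 and 6.22 in the non-SMC lines, with a log2 ratio of 2.07 that was above 98.9% of gene windows. The 2 non-SMC lines differed more from each other than the 2 SMC lines did, with an SD of 3.78 against 0.767. All 6 regions that separated the cell types were SMC-only, and 4 of them lay in introns of *Prox1*. The strongest, 14395 bp downstream of the TSS (chr1:190155828-190156443), reached percentiles 88.4 and 92.3 in the SMC lines. Another lay 4841 bp upstream, with a mean percentile of 69.3. The promoter itself, the 6 kb centred on the TSS, had a peak in every library, so it did not separate the types. These promoter peaks were not all at 1 place, since only the region at the TSS was shared, by SMC line 2 and non-SMC line 2.

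The window of *Nkx2-1*, on the - strand of chromosome 12 (56531958 to 56536908), held 5 and 17 peaks in the SMC lines and 1 in each non-SMC line. Per 100000 listed peaks these were 5.49, 11.04, 0.863 and 0.777. Both SMC lines were above both non-SMC lines, and the log2 ratio of 3.33, above 99.9% of gene windows, was the highest among the 8 genes. The count in the denominator was 1 peak per line. The 3 SMC-only regions had modest ranks, and 2 of them lay in an intron, 1606 and 1135 bp downstream of the TSS. The first, printed above (chr12:56535184-56535442), was at percentile 45.9 in SMC line 1 and 79.5 in SMC line 2. A region 742 bp upstream of the TSS had a peak only in SMC line 2, at percentile 78.1. Non-SMC line 2 did have a promoter peak, 576 bp downstream of the TSS and at percentile 49.2, in a region where both SMC lines had peaks too. The promoter of this lung factor was therefore not SMC-only, although 12 peaks of SMC line 2 lay outside it.

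*Foxa2* lies on the - strand of chromosome 2 (148042877 to 148046969). Its window held 10 and 23 peaks in the SMC lines and 5 and 7 in the non-SMC lines, or 10.98, 14.9, 4.32 and 5.44 per 100000 listed peaks, with a log2 ratio of 1.41. The SMC lines were higher here too, but only 2 regions were SMC-only and both had mean percentiles under 50. Apart from the number of peaks, a promoter region that all 4 lists shared (chr2:148045564-148047015) differed in height. The pileup of reads at a summit was recovered from the fold enrichment and p-value and divided by the lowest background of the library. The highest pileup of this region was 21.9 and 39.0 times that background in SMC lines 1 and 2, and 4.04 and 12.5 times in non-SMC lines 1 and 2. The SMC lines were higher without overlap, on pileups of 10, 60, 6 and 8 reads in the same order, so counting error is large in all but SMC line 2. In the opposite direction, a region 33378 bp downstream of the TSS (chr2:148013249-148013876) had peaks at percentiles 76.5 and 96.0 in the non-SMC lines and none in the SMC lines.

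*Foxa1*, on the - strand of chromosome 12 (57540628 to 57546916), had the most even window of the 8 genes. It held 12 and 15 peaks in the SMC lines and 13 and 14 in the non-SMC lines, or 13.2, 9.74, 11.2 and 10.9 per 100000 listed peaks. The types overlapped, and the log2 ratio of 0.05 was above 49.6% of gene windows, with the direction of the difference turned in 6 of 12 alternatives. SMC-only and non-SMC-only regions numbered 5 each, against 4.37% and 7.33% of regions in the genome and 15.6% each of the 32 regions here. The promoter had a peak in all 4 lists. Within it, a region in the UTR, 873 bp downstream of the TSS (chr12:57545988-57546132), had peaks in the SMC lines alone, at percentiles 89.96 and 81.7. Just upstream, the types had peaks at neighbouring places, with a non-SMC-only region at 4835 bp and an SMC-only region at 6604 bp from the TSS. Of the other non-SMC-only regions, 3 lay between 37100 and 56185 bp downstream of the TSS, the farthest in an intron of the neighbouring *Mipol1*. At the window edge on the other side, 2 SMC-only regions lay in introns of *Ttc6*.

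**Figure D3:**
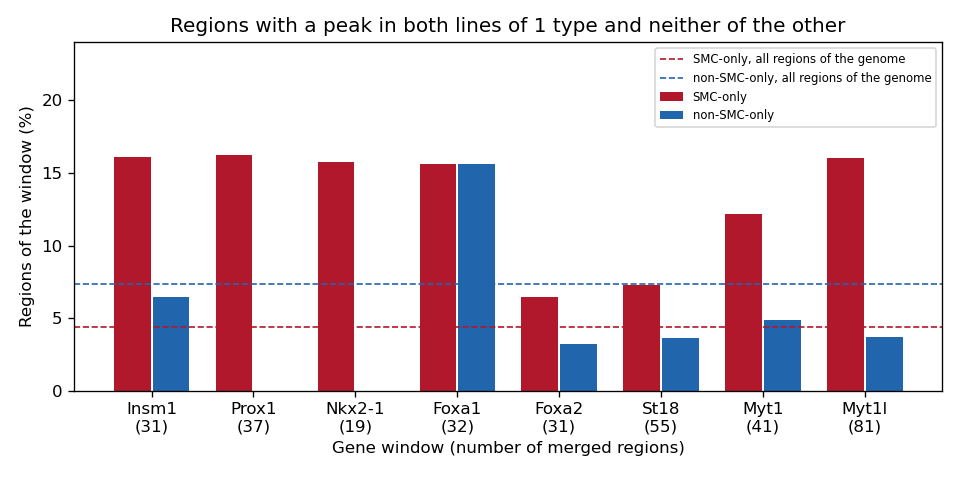
Percentage of the merged regions of each window that were SMC-only (red) or non-SMC-only (blue), with the number of regions under each gene. Dashed lines give the same percentages over all regions of the genome, 4.37% and 7.33%. *Prox1* and *Nkx2-1* have no non-SMC-only region, and at *Foxa1* the percentages are equal.

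Among the zinc finger genes of the MYT1 family, *Myt1l* differed most between the cell types. It spans 394.83 kb on the + strand of chromosome 12 (29528384 to 29923213). The window held 26 and 53 peaks in the SMC lines and 8 and 20 in the non-SMC lines, or 28.6, 34.4, 6.91 and 15.5 per 100000 listed peaks. The SMC lines were higher without overlap, with a log2 ratio of 1.49, above 97.3% of gene windows. It held 13 of the 43 SMC-only regions, 11 of them within the gene and spread from 6180 to 354661 bp downstream of the TSS. The strongest (chr12:29749841-29750262), in an intron, was at percentile 95.6 in SMC line 1 and 97.5 in SMC line 2. Its printed sequence held CAGCTG, a FOXA match and an NKX2 match. The 3 non-SMC-only regions lay toward the 3′ end of the window, from 378886 to 433358 bp downstream. The strongest of these (chr12:29934155-29934671) lay between the end of *Myt1l* and the start of *Pxdn*, which encodes a matrix peroxidase, at percentiles 97.6 and 93.3 in the non-SMC lines.

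*Myt1l* was also the only one of the 8 genes with an SMC-only promoter, against 3.08% of all promoters, and 0 promoters were non-SMC-only, against 2.45%. There were 2 SMC-only regions upstream of its TSS. The nearer one, at 663 bp, was at percentiles 85.5 and 87.3 in SMC lines 1 and 2. The other, whose summits were 2057 and 1796 bp upstream, was at percentiles 91.9 and 81.2. The sequences around their summits are shown because this was the promoter that separated the types, and the farther one held CAGCTG.
Myt1l SMC-only promoter region, chr12:29526227-29526426, + strand: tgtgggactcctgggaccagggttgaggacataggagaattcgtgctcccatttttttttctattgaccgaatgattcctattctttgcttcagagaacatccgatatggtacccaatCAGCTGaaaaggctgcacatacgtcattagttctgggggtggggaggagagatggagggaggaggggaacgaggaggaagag
Myt1l SMC-only promoter region, chr12:29527621-29527820, + strand: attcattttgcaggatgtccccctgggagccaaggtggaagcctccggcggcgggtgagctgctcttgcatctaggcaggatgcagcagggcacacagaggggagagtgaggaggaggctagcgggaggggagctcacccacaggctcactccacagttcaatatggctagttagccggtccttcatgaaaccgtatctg
The promoters of *Prox1*, *Foxa1* and *Foxa2* had a peak in all 4 lists, that of *St18* in none, and those of *Insm1*, *Nkx2-1* and *Myt1* in 2 or 3 of them. When the promoter was narrowed to 2 kb around the TSS, *Insm1* became SMC-only beside *Myt1l*, as it did with equal numbers of top peaks. Of all promoters, 3.17% and 3.54% were SMC-only under these settings. The *Insm1* promoter had a peak in SMC line 1 alone after thinning to a common depth, in no library at a p-value up to 1e-05 after thinning, and in SMC line 2 alone with a -log10 q of at least 5. When the starts of every annotated transcript were used, non-SMC line 2 had a peak at another start of *Myt1l*, and no member was SMC-only.

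The window of *Myt1*, on the + strand of chromosome 2 (181763332 to 181827797), held 14 and 25 peaks in the SMC lines and 10 and 11 in the non-SMC lines. The shares of 15.4 and 16.2 per 100000 listed peaks in the SMC lines lay above 8.63 and 8.55 in the non-SMC lines, with a log2 ratio of 0.88. The SD between lines was 0.611 for SMC and 0.0611 for non-SMC. Each SD rests on 2 lines with 10 to 25 peaks per line and does not measure counting error. How far apart the types stood at *Myt1* therefore cannot be judged from these SDs. Of the 5 SMC-only regions, 3 lay in *Myt1*. The strongest, in an intron 12644 bp downstream of the TSS (chr2:181775816-181776255), was at percentile 97.6 in SMC line 1 and 81.0 in SMC line 2. Another stood 4181 bp upstream with a mean percentile of 85.9, and 1 lay in the UTR of *Oprl1*, an opioid-related receptor gene at the edge of the window. The 2 non-SMC-only regions were in introns of *Myt1* and weaker, with mean percentiles of 51.6 and 40.1. The highest peak of the window in every library was at the start of *Polr3k* (chr2:181863974-181864704), which encodes a subunit of RNA polymerase III. Its percentile was 98.5 or more in each list, so the highest values in this window belong to a neighbouring promoter.

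*St18* spans 373.71 kb on the + strand of chromosome 1 (6487231 to 6860940). Its window held 14 and 25 peaks in the SMC lines and 9 and 22 in the non-SMC lines, or 15.4, 16.2, 7.77 and 17.1 per 100000 listed peaks. The types overlapped because non-SMC line 2 was above both SMC lines, and the log2 ratio was 0.35. Without non-SMC line 1 the difference in share turned from 3.38 to -1.29. The number of peaks thus did not separate the types, although some of the strongest peaks lay at different places. The strongest SMC-only region of all 8 windows (chr1:6658112-6658797) lay in an intron 171132 bp downstream of the TSS, at percentiles 99.7 and 99.9 of the SMC lists. A further SMC-only region, 242150 bp downstream (chr1:6729216-6730158), had a mean percentile of 99.2. The strongest non-SMC-only region (chr1:6623802-6624647) was in an intron of the same gene, 136902 bp downstream of the TSS, at percentiles 99.2 and 97.3 of the non-SMC lists. The SMC-only sequence held a FOXA and an AP-1 match, and the non-SMC-only sequence held an AP-1, a TEAD and an NFI match. A region 32842 bp upstream of the TSS (chr1:6454023-6454652) was open in all 4 lists, between percentiles 90.1 and 96.3. The annotated TSS at the 5′ end of the gene had no peak within 3000 bp in any library, whereas other annotated starts had peaks in both SMC lines and in non-SMC line 2.

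The local background against which MACS2 judged each peak was also recovered, and is given as a multiple of the lowest background of the library. At the peaks within 5 kb of the *Insm1* TSS its median was 4.26 in SMC line 1 and 3.91 in SMC line 2, at or above those of 97.5% and 98.9% of genes with a peak so near their TSS, and 1.08 and 1.15 in the non-SMC lines. More than 20 kb from the TSS the medians were 1.23 and 1.20 in the SMC lines, so the raised values lay near the gene. At *Foxa2* the medians within 5 kb were 2.51 and 5.83 in the SMC lines and 1.00 and 1.79 in the non-SMC lines. At *Nkx2-1* they were 2.32 and 2.59 in the SMC lines and 1.00 in both non-SMC lines, which had 1 peak each there. At *Prox1* they were 2.77 and 2.16 against 1.00 and 1.00, again with 1 peak in each non-SMC line. At *Foxa1* they were raised in every library, at 3.08, 2.65, 2.39 and 2.19. At the other 3 genes the medians in the SMC lines were lower than at the genes above. At *Myt1* they were 1.48 and 1.84, against 1.05 at the 1 such peak of non-SMC line 2. At *Myt1l* they were 2.13 and 1.13, with no such peak in the non-SMC lines. *St18* had 1 such peak, at 1.00 in SMC line 1. Among genes with a peak so near their TSS, the SMC medians ranked at percentiles 71.7 and 89.1 at *Nkx2-1* and 84.5 and 78.2 at *Prox1*. They ranked at 78.2 and 99.8 at *Foxa2*, 89.2 and 90.2 at *Foxa1*, 32.2 and 65.3 at *Myt1* and 64.6 and 23.6 at *Myt1l*. Over all genes the median was between 1.56 and 1.84 in the 4 libraries. A high local background lowers the fold enrichment of the peaks inside it. At *Insm1*, the peak 1117 bp upstream in SMC line 2 had a pileup 8.45 times the lowest background and yet ranked at percentile 0.320. The values at these genes were measured only where a peak was listed, and their part in the counts of peaks was not tested.

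**Figure D4:**
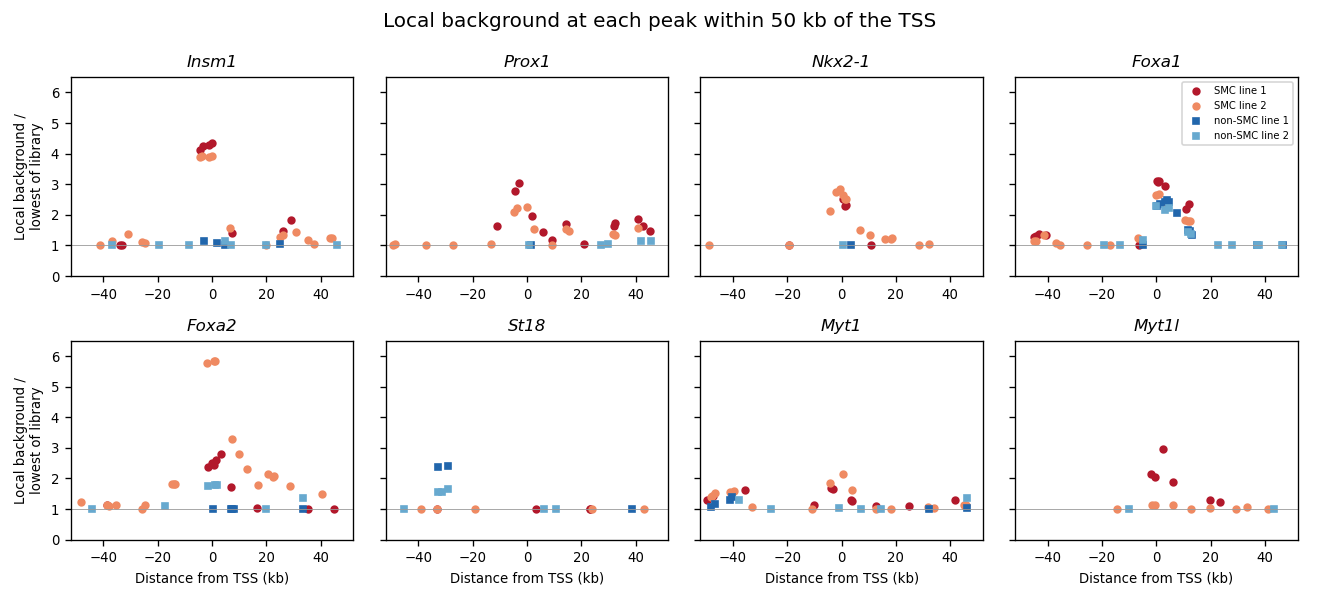
Local background at each listed peak as a multiple of the lowest background of its library, by distance from the TSS in kb, for peaks within 50 kb of it. Circles are SMC lines and squares are non-SMC lines. Near the TSS the circles reach 4.34 at *Insm1*, 5.85 at *Foxa2*, 2.84 at *Nkx2-1* and 3.03 at *Prox1* with squares lower, and at *Foxa1* both are raised.

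The same counts were made for 2 further lists of factors. Of 11 other neuroendocrine and neural factors, 7 had at least 10 peaks in their window. Both SMC lines were higher at 3 of these, *Nkx2-2*, *Pou3f2* and *Sox11*, and both non-SMC lines at 1, *Nhlh1*. Over all gene windows with at least 10 peaks, these orders were seen in 22.3% and 19.8%. The log2 ratio of the 10 factors with a peak had a median of 0.85, and *Neurod4* had no peak in any library. That median includes *Isl1*, *Rfx6* and *Pou3f4*, at 1.62, 1.74 and 0.71, whose windows held fewer than 10 peaks. The medians of the members and of all gene windows include no such window. The 7 factors with at least 10 peaks were at -0.26 (*Nhlh1*), -0.003 (*Neurod1*), 0.28 (*Hes6*), 0.52 (*Sox11*), 0.99 (*Nkx2-2*), 1.18 (*Nhlh2*) and 1.22 (*Pou3f2*). Of 10 other lung and epithelial factors, the SMC lines were higher at 4, *Foxa3*, *Etv5*, *Klf5* and *Foxp2*, and the non-SMC lines at 1, *Grhl2*, and the median was 0.45. No promoter of either list was SMC-only or non-SMC-only, against 3.08% and 2.45% of all promoters. Of the 10 lung and epithelial promoters, 7 had a peak in all 4 peak lists. Beside these lists, the 6 of 8 member windows in which the SMC lines were higher are given as a description, since no test was made between lists.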

How the data were processed

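ATAC-seq was performed on 2 SMC and 2 non-SMC lines, with 1 library each. Bowtie2 v2.3.4 (mapping to mm10) and MACS2 v2.1.1 (peak calling, by library and without pooling) were used by the authors. The peak calling settings are not given in the sources used here. The deposited lists give for each peak a fold enrichment, which is a ratio of pileup to local background, and -log10 values of the p-value and q-value. The deposited score was left unused. Since depth affects these values, peaks were ranked within their list. Exceptions are the -log10 q minimum, which was the same for every library, and pileups, which were divided by the lowest background of their library.

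Autosomal, X and Y peaks were kept. Genes were taken from GENCODE M21, with the 5′ end as TSS. Peaks were compared by an overlap of at least 1 base. Pileup and background were recovered from fold enrichment and p, and 100% of 17744 simulated peaks were recovered. Overlap counts did not differ from bedtools 2.31.1. The implied depth assumes the preset genome size of MACS2 and the shortest peak as fragment length. The 8 genes, the further lists and the motifs were chosen with earlier results of these data known. One gene of the marker and factor lists is not reported here. Named regions are the SMC-only, non-SMC-only and shared region with the highest mean percentile in each window, and promoter regions. Alternatives were a minimum -log10 q of 5, equal numbers of top peaks (91057), thinning to 50% of the shallowest depth, other windows and promoters, a reciprocal overlap of 50%, bases covered, peak numbers and leaving out each library. Other regions and genes were named after their values were seen. Calculations used pandas 2.3.3, numpy 2.4.6 and scipy 1.17.1 under Python 3.11.15, and plots used matplotlib 3.10.9.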

Additional observations from a re-analysis of the deposited data

Results flagged for a closer look

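The windows of *Foxa1* and *St18* differed in direction between the lines numbered 1 and those numbered 2. At *Foxa1*, SMC minus non-SMC was 1.96 peaks per 100000 listed peaks between the lines numbered 1 and -1.13 between those numbered 2. At *St18* the corresponding values were 7.61 and -0.85. Each comparison is 1 library against 1, and the difference between the 2 comparisons was not tested. The sample titles give the number alone, and whether lines of the same number share a tumor was not established.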

How the results depend on the processing

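Under 12 alternatives for each of the 8 genes, 86 of 96 differences in share kept their direction, 3 were 0 and 7 were opposite, 6 at *Foxa1* (-7.75 to 3.23 over the alternatives in the same unit) and 1 at *St18* (-1.29 without non-SMC line 1). *Insm1* and *Nkx2-1* had a difference of 0 when the thinned peaks were held to a p-value of 1e-05. SMC lines were higher at 4 to 8 of the 8 genes, with 8 by bases covered and 4 in the gene body alone or with the thinned peaks at 1e-05. The share of all gene windows, 22.3% in the main setting, was not computed for the alternatives, so these counts have no matched background. With a -log10 q of at least 5, SMC-only and non-SMC-only regions numbered 7 each (12.5%, against 6.12% and 20.1% in the genome), and the difference in total share was 82.9. Thinning to a common depth left 19 SMC-only regions (10.2%, against 4.50%), and at a p-value up to 1e-05 it left 2 SMC-only and 5 non-SMC-only regions (4.44% and 11.1%, against 4.01% and 16.3%) and 0 SMC-only promoters, since the *Myt1l* promoter then had a peak in SMC line 1 alone. The gene bodies alone held 26 SMC-only and 5 non-SMC-only regions (16.4% and 3.14%, against 4.37% and 7.33%), with a difference in share of 37.8. With 100 kb on each side the difference was 85.0. SMC-only promoters numbered 2, *Insm1* and *Myt1l*, with equal numbers of top peaks or a promoter of 2 kb, against 3.54% and 3.17% of all promoters. With the starts of every transcript there were 0, against 2.52%. Without 1 library in turn, SMC-only regions ranged from 45 to 172 and non-SMC-only regions from 15 to 70, with 172 without SMC line 1, 89 without SMC line 2, 70 without non-SMC line 1 and 35 without non-SMC line 2, because the remaining line then decides alone. The genes with SMC lines higher numbered 6 to 7 and the difference in share was 50.7 to 76.5. With a single line left in a type, an order without overlap is easier to reach. No paired analysis was possible because no result comes from a test, and differences between lines of the same number are given as a description only. The shallowest library was SMC line 1, with an implied depth of 8.36 M reads, and a region without a peak there may hold one at greater depth.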
